A study of Mus musculus with 12 samples.

Results

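The genotype by diet interaction in CD11c+ spleen cells is the difference between 2 diet differences. The diet difference (high-cholesterol minus chow) was taken in ApoE-/- cells, and the diet difference in Bl6 cells was subtracted from it. All 12 arrays of the series entered, and the members were the probes detected (detection p under 0.05) on at least 3 of them, which gave 26390 of 46237 probes, for 14326 of 21946 named genes. The groups were ApoE-/- on a high-cholesterol diet (samples 4, 5 and 6), ApoE-/- on chow (samples 1, 2 and 3), Bl6 on the high-cholesterol diet (samples 10, 11 and 12) and Bl6 on chow (samples 7, 8 and 9), with 3 arrays each. ApoE-/- mice lack apolipoprotein E, and Bl6 is the wild type of the labels. One text of the series calls the diet high fat and the sample labels call it high cholesterol. Cells were pulled from spleens with magnetic beads that bind CD11c, a surface integrin of dendritic cells that macrophages and other leukocytes also carry. Age, duration of feeding, pooling of animals and littermate status of the Bl6 mice are not stated in the labels. No label says that arrays of a group came from separate mice, so p-values measure how far these samples spread, and that spread may be technical.

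Apolipoprotein E sits on lipoprotein particles and lets cells take them up through receptors of the low-density lipoprotein family. When it is missing, remnant particles stay in the blood and plasma cholesterol is high even on chow. Cells meet cholesterol with opposed programmes. SREBP2 (Srebf2) drives the genes of cholesterol synthesis and uptake while sterol in the endoplasmic reticulum is low, and the liver X receptors (LXR), which bind oxysterols, drive genes of cholesterol export such as Abca1, Abcg1 and the apolipoproteins of the Apoe cluster when sterol is high.

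All 12 arrays had similar signal, with a median of 102 to 120 intensity units and 47.7% to 50.3% of probes detected; the number of arrays limits the precision. The deposited tables disagree on the diets of the knockout: the log2 table holds arrays 4, 5 and 6 under the names of samples 1, 2 and 3 and the reverse, while Bl6 names match. Values below follow the intensity table, and a second value, called exchanged, follows the log2 table. The files do not settle which naming holds. The interaction is the ApoE-/- diet difference minus that of Bl6, and exchanging the diets turns the sign of the ApoE-/- difference only, so a gene with an ApoE-/- difference near 0 has nearly the same value both ways. Genotype also moved with sex-linked genes. Xist read 4.17 to 4.39 (log2) on the 6 ApoE-/- arrays and 9.75 to 10.88 on the 6 Bl6 arrays, and the Y-linked Eif2s3y read 9.75 to 10.44 on ApoE-/- and 4.11 to 4.41 on Bl6 arrays, so genotype and these sex-linked states cannot be told apart in the interaction. CD11c itself (Itgax) was detected on every array and read 8.03 to 8.73. All 12 genes of the dendritic cell core list were tested, and their mean level lay between 9.05 and 9.24 on every array. In bulk cells like these, fewer cells of a type and less RNA per cell cannot be told apart.

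No probe passed the test of the interaction. With limma and Benjamini-Hochberg adjustment over all 26390 probes, 0 had an adjusted p under 0.05 (0%), the smallest adjusted p was 0.105 and 9 probes shared it. At an unadjusted p under 0.05 stood 2006 probes (7.6% of those tested), 1025 above 0 and 981 below. With the knockout diets exchanged, 0 probes passed (0%, smallest adjusted p 0.0732) and 1962 had an unadjusted p under 0.05 (7.43%). Between the namings 497 probes were shared, 438 with the same sign and 59 with opposite signs. The absence of calls depended on the processing: in 5 of 8 other settings of background, filter or variance model, 8 to 13 probes passed. Both probes of Apoc1 and those of Sdc2, Sqle and an unnamed transcript (probe ILMN_2747031) passed in all 5 of them. The median probe had a standard error of 0.27 for its interaction, so its 95% interval reached 0.58 to either side on the log2 scale. The median standard error was 0.18 over the 6598 brightest probes and 0.31 over the 6598 dimmest. Of 93 named genes, 34 had a value over 1.5 times smaller with a background offset of 50, 46 without background correction and 47 on the deposited log2 values.

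The diet difference was wider in Bl6 than in ApoE-/- cells. In ApoE-/- cells 0 probes passed (0%, smallest adjusted p 0.0810 with limma) and 981 had an unadjusted p under 0.05 (3.72%, a smaller share than the cutoff itself). In Bl6 cells 10 probes passed (0.0379%), 6 up and 4 down, and 3155 had an unadjusted p under 0.05 (12%). Across all tested probes the SD of the diet difference was 0.21 in ApoE-/- and 0.28 in Bl6 cells. Spread between arrays of a group is part of both values. Its root mean square SD was 0.28 on ApoE-/- high-cholesterol, 0.26 on ApoE-/- chow, 0.28 on Bl6 high-cholesterol and 0.29 on Bl6 chow arrays. The correlation across probes between the ApoE-/- and the Bl6 diet difference was -0.00376, a description over probes that share arrays and are not independent. Of the 2006 probes with an unadjusted interaction p under 0.05, 76.4% had the larger diet difference in Bl6 cells. Over all tested probes the share was 61.6%. The 2006 probes were picked by the interaction, which contains the Bl6 diet difference, and such a choice favours the wider component. The higher share among them is therefore a description and adds no separate evidence of a wider difference in Bl6 cells.

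**Figure D1:**
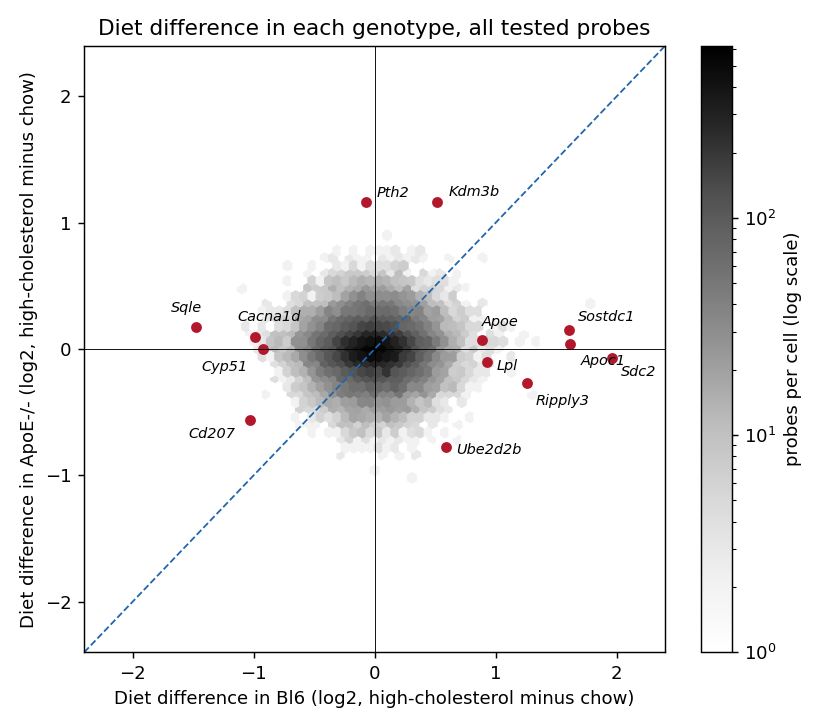
Diet difference in ApoE-/- cells (vertical) against that in Bl6 cells (horizontal) for all 26390 tested probes, both in log2 units; grey cells are shaded by the number of probes and red points are named genes. On the dashed line the interaction is 0; Apoc1, Sdc2, Sqle and Cyp51 lie near the horizontal axis, far from 0 in Bl6 only, and Pth2 lies near the vertical axis. Vsig4, with a Bl6 difference of 3.56, lies outside the plotted range.

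The 10 probes that changed with diet in Bl6 cells had diet differences between -0.27 and 0.20 in ApoE-/- cells. Their Bl6 differences were 0.92 to 1.96 in size. They belonged to Apoc1 (both probes), Sdc2, Sostdc1, Ripply3 and Ctla2b, which rose, and to Sqle, Cyp51, Cacna1d and the unnamed transcript, which fell. This Bl6 comparison is a component of the interaction, so the genes are given as a description.

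Apoc1, on chromosome 7 from 19689480 to 19692659 (GRCm38.p6) beside Apoe, encodes an apolipoprotein that inhibits lipid-transfer and lipase reactions, and LXR drives it in macrophages. Its brightest probe read 11.08, 10.64 and 10.64 on the ApoE-/- high-cholesterol arrays and 10.82, 10.81 and 10.59 on the ApoE-/- chow arrays. On the Bl6 high-cholesterol arrays it read 11.28, 11.56 and 11.31, against 9.70, 9.95 and 9.64 on the Bl6 chow arrays. The ApoE-/- groups overlapped and all 6 of their arrays lay between the Bl6 groups. Apoc1 rose by 1.62 ± 0.15 in Bl6 cells (adjusted p = 0.00416), was 0.04 ± 0.15 higher in ApoE-/- cells, and had an interaction of -1.57 (95% interval -2.05 to -1.10, adjusted p = 0.105; exchanged -1.66). Over the 8 processing settings the adjusted p ran between 2.3e-05 and 0.124. Its other probe gave -1.48 (adjusted p = 0.105; exchanged -1.88, adjusted p = 0.0732).

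Apoe itself was also higher on the high-cholesterol diet in the cells that have the gene (0.89 ± 0.14, adjusted p = 0.0753). On the Bl6 high-cholesterol arrays it read 13.11, 13.29 and 13.04, against 12.18, 12.33 and 12.26 on Bl6 chow arrays, and the groups did not overlap. The probe read 5.61, 5.80 and 5.75 on ApoE-/- high-cholesterol arrays and 5.52, 5.93 and 5.50 on ApoE-/- chow arrays, where the gene is disrupted. Its interaction of -0.82 ± 0.19 (adjusted p = 0.389; exchanged -0.96) therefore sets a measured level against the residual signal of a knockout. It passed in 2 of 8 processing settings, with adjusted p-values between 0.00916 and 0.361, and exchanged in 3 (smallest adjusted p 0.00115). The position of this probe against the disrupted exons is not stated in the labels.

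Sdc2 encodes syndecan-2, a heparan sulfate proteoglycan of the cell surface. It read 6.51, 6.93 and 6.59 on ApoE-/- high-cholesterol arrays and 6.56, 6.46 and 7.22 on ApoE-/- chow arrays. The Bl6 high-cholesterol arrays read 7.80, 7.30 and 7.61, against 5.68, 5.75 and 5.39 on Bl6 chow. Bl6 arrays of the high-cholesterol diet lay above, and those of chow below, every other array. Its interaction was -2.03 ± 0.30 (adjusted p = 0.105; exchanged -1.89), and over the processing settings the value ran between -2.13 and -1.04 and the adjusted p between 0.00140 and 0.142.

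Bl6 high-cholesterol arrays also lay above the other 9 in Ripply3, a transcriptional co-repressor (interaction -1.53 ± 0.23), and in Ctla2b, related to the propeptide of cathepsins (-1.07 ± 0.16), both at an adjusted p of 0.105. Over the processing settings Ripply3 ran between -1.60 and -0.58 and passed in 2 of 8, and Ctla2b ran between -1.17 and -0.59 and passed in 3. Sostdc1, a secreted antagonist of BMP and Wnt signals, stood at -1.46 ± 0.28 (adjusted p = 0.300). Its Bl6 chow arrays (4.50, 4.74 and 4.52, detected on 1 of 3) lay below the other 9, which read 5.58 to 6.43. Its value ran between -1.53 and -0.43 over the processing settings. Cacna1d, a subunit of voltage-gated calcium channels, had its Bl6 chow arrays (7.44, 7.18 and 7.52) above the other 9, which read 6.20 to 6.68, and an interaction of 1.08 ± 0.20 (adjusted p = 0.249).

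Of 20 listed genes of cholesterol synthesis 15 were measured. Their median diet difference was -0.011 in ApoE-/- cells and -0.31 in Bl6 cells, where 12 of 15 lay below 0 and 3 above. Sqle and Cyp51 passed the adjusted test in Bl6, and none passed that of the interaction. The interaction lay above 0 in 12 and below 0 in 3, with a median of 0.25 against -0.0014 over all genes. At an unadjusted p under 0.05, 6 of 15 were above 0 and 0 below, where the shares over all genes were 3.86% above and 3.58% below. Exchanged, 5 were above and 1 below (3.84% and 3.13% of all genes), with a median of 0.39. In the ApoE-/- diet difference 0 were lower and 1 higher at an unadjusted p under 0.05 (1.8% and 1.49% of all genes). In the Bl6 diet difference 7 of 15 were lower and 0 higher (6.62% and 5.38%).

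Sqle encodes squalene epoxidase, a rate-limiting step after HMG-CoA reductase. It read 9.52, 8.95 and 8.85 on ApoE-/- high-cholesterol arrays and 9.01, 9.02 and 8.76 on ApoE-/- chow arrays. On Bl6 high-cholesterol arrays it read 8.13, 8.02 and 8.11, against 9.61, 9.58 and 9.49 on Bl6 chow arrays. The 3 Bl6 high-cholesterol arrays lay below all others, with an SD of 0.06 within that group. Sqle fell by 1.47 in Bl6 cells (adjusted p = 0.00893), was 0.18 ± 0.16 higher in ApoE-/- cells, and had an interaction of 1.65 (95% interval 1.14 to 2.16, adjusted p = 0.105; exchanged 1.30). Over the processing settings the adjusted p ran between 5.7e-05 and 0.193. A dimmer Sqle probe gave 0.94 ± 0.44 (adjusted p = 0.661).

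Cyp51, the lanosterol demethylase, read 8.02, 7.69 and 7.64 on ApoE-/- high-cholesterol arrays and 7.73, 7.76 and 7.87 on ApoE-/- chow arrays. It read 7.35, 7.33 and 7.23 on Bl6 high-cholesterol arrays, against 8.07, 8.33 and 8.27 on Bl6 chow arrays. The ApoE-/- diet difference was 0.0002, so the interaction was 0.93 ± 0.18 and exchanged 0.92 (adjusted p = 0.312 and 0.459). Hsd17b7, a sterol ketoreductase, had an interaction of 0.81 ± 0.18, with the Bl6 high-cholesterol arrays (7.22, 7.38 and 7.29) below all others (7.69 to 8.24). Fdps, which makes farnesyl diphosphate, stood at 0.83 ± 0.20 (its other probe at 1.35), Msmo1, a sterol methyl oxidase, at 0.82 ± 0.25 and Dhcr7, which takes the last step to cholesterol, at 0.44 ± 0.20. Adjusted p-values of these 4 genes lay between 0.346 and 0.647. Nsdhl, another enzyme of sterol demethylation, was the gene whose unadjusted call appeared below 0 when diets were exchanged (-0.79), against an interaction of 0.11. Its other 3 probes disagreed, with interactions of -0.65 (unadjusted p = 0.00936), 0.15 and 0.31.

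By the mean of the 15 genes the Bl6 high-cholesterol arrays stood apart, at 7.01 to 7.15 against 7.29 to 7.52 on the other 9 arrays. The ApoE-/- arrays lay at 7.31 to 7.52 on the high-cholesterol diet and 7.29 to 7.43 on chow, and the Bl6 chow arrays at 7.48 to 7.49. In 5 of 15 genes the Bl6 high-cholesterol arrays were all below the other 9 (2.82% of all genes), and in 1 gene, Ebp, all above (2.4% of all genes).

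Sterol-regulated promoters hold short sites for SREBP and, near them, CCAAT boxes for NF-Y. The sequences below show the genes of cholesterol synthesis and sterol sensing with an unadjusted interaction p under 0.05 that have 1 RefSeq promoter entry in the table used; each is the 250 bases before the gene's start, read 5′ to 3′ on the gene's strand, from RefSeq on GRCm38.p6. Capitals mark the words TCACNNCA, which covers the classical sterol element, and CCAAT, each on either strand, where the reverse of CCAAT reads ATTGG. The windows lie at chr5:4104698-4104947 on the minus strand (Cyp51), chr8:64733579-64733828 on the minus strand (Msmo1), chr1:169969206-169969455 on the minus strand (Hsd17b7), chr15:82147019-82147268 on the plus strand (Srebf2) and chr13:45389492-45389741 on the plus strand (Mylip, the member below 0).
Cyp51: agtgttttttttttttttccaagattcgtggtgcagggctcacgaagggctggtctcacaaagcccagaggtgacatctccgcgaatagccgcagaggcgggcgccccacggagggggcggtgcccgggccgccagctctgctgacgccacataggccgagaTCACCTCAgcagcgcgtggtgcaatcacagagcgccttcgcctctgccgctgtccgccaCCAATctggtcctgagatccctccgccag
Msmo1: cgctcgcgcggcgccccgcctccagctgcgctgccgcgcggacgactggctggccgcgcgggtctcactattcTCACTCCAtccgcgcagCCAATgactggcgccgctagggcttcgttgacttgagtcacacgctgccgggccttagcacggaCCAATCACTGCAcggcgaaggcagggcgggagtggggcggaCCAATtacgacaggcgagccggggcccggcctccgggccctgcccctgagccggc
Hsd17b7: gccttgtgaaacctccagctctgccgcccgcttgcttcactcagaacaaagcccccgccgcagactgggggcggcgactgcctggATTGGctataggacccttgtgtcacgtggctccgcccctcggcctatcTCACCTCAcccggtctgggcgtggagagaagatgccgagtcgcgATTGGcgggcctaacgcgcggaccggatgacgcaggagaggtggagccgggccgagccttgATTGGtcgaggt
Srebf2: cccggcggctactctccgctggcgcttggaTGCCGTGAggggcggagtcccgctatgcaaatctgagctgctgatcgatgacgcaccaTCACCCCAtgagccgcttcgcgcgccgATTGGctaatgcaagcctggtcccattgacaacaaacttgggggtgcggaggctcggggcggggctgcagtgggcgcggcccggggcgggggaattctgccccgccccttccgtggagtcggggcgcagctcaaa
Mylip: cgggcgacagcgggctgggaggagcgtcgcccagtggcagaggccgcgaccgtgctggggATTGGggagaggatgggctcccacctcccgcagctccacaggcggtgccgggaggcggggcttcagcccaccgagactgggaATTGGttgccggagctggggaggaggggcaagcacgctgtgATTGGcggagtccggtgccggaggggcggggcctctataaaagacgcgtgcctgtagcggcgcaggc
Of these 5 windows 4 hold both words, and that of Mylip holds CCAAT and no TCACNNCA on either strand. The probe of Mylip passed the detection filter only through the groups where it was high. Its place among these genes is therefore a description with no test, and no contrast is drawn from its window. TCACNNCA was found in 11.4% and CCAAT in 33.8% of 32851 promoter windows of the same length. In Msmo1 a TCACNNCA word shares its opening base with the last base of a CCAAT. The words were chosen after the values were seen, and a match is a description of letters, not a bound site.

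Regulators of sterol sensing were mixed. Of 9 measured genes 2 were above 0 and 1, Mylip, below at an unadjusted p under 0.05 (3.86% and 3.58% of all genes), with a median of 0.03. Exchanged, 2 were above and 0 below (3.84% and 3.13%), with a median of 0.22. Srebf2 read 9.38, 9.72 and 9.39 on ApoE-/- high-cholesterol arrays and 9.51, 9.43 and 9.69 on ApoE-/- chow arrays. It read 9.11, 8.88 and 8.76 on Bl6 high-cholesterol arrays, against 9.77, 9.75 and 9.30 on Bl6 chow arrays, all 3 below every other array. Its interaction was 0.64 ± 0.23 (adjusted p = 0.569; exchanged 0.74), and its other probe gave 0.15. Stard4, a cytosolic sterol carrier that SREBP2 drives, stood at 0.63 ± 0.20 (exchanged 0.52). Insig1, which retains the SREBP complex in the endoplasmic reticulum, gave 0.35 ± 0.28, with 0.82 and 0.59 at its other probes. Mylip, the LXR-driven ligase that degrades lipoprotein receptors, was at -0.93 ± 0.34 and 0.23 when diets were exchanged. It was not above background on any ApoE-/- high-cholesterol or Bl6 chow array. Mylip passed the detection filter only through the groups where it was high, so its values are a description with no test.

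LXR targets lay mostly below 0. Of 11 measured genes 0 were above 0 and 5 below at an unadjusted p under 0.05, with a median of -0.50 (3.86% above and 3.58% below over all genes). The 5 include Mylip, also counted under sterol sensing, which passed the detection filter only through the groups where it was high. Exchanged, 0 were above and 3 below (3.84% and 3.13%), with a median of -0.33. In the ApoE-/- diet difference 0 were higher and 1, Mylip, lower at an unadjusted p under 0.05 (1.49% and 1.8% of all genes), and in the Bl6 difference 4 were higher and 0 lower (5.38% and 6.62%). After Apoc1 came Lpl, lipoprotein lipase, at -1.04 ± 0.30 (adjusted p = 0.456; exchanged -0.83). Lpl read 11.30, 10.97 and 11.67 on ApoE-/- high-cholesterol arrays and 11.62, 11.68 and 10.95 on ApoE-/- chow arrays. It read 12.20, 12.11 and 12.36 on Bl6 high-cholesterol arrays, against 11.16, 11.40 and 11.33 on Bl6 chow arrays. The Bl6 high-cholesterol arrays lay above the other 9.

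Pltp, the phospholipid transfer protein, had an interaction of -0.54 ± 0.23 (exchanged -0.89), and its Bl6 chow arrays (7.56, 7.12 and 7.48) lay below the other 9 (7.65 to 8.27). Scd2, a fatty acid desaturase, stood at -0.51 ± 0.23 and Abcg1, the exporter of cholesterol to high-density lipoprotein, at -0.50 ± 0.26, with an unadjusted p of 0.0844. Nr1h3, which encodes LXR alpha, was at 0.58 ± 0.50, and its interval covers 0. By the mean of the 11 genes the Bl6 high-cholesterol arrays read 9.46 to 9.65 and the other 9 read 8.94 to 9.19. The list of red pulp and marginal zone macrophage markers was also highest on these 3 arrays, at 11.92 to 11.94 against 11.52 to 11.81, and its part in the LXR and lipid storage values was not tested. That mean leans on Vsig4, described below, and a mean without Vsig4 was not taken.

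**Figure D2:**
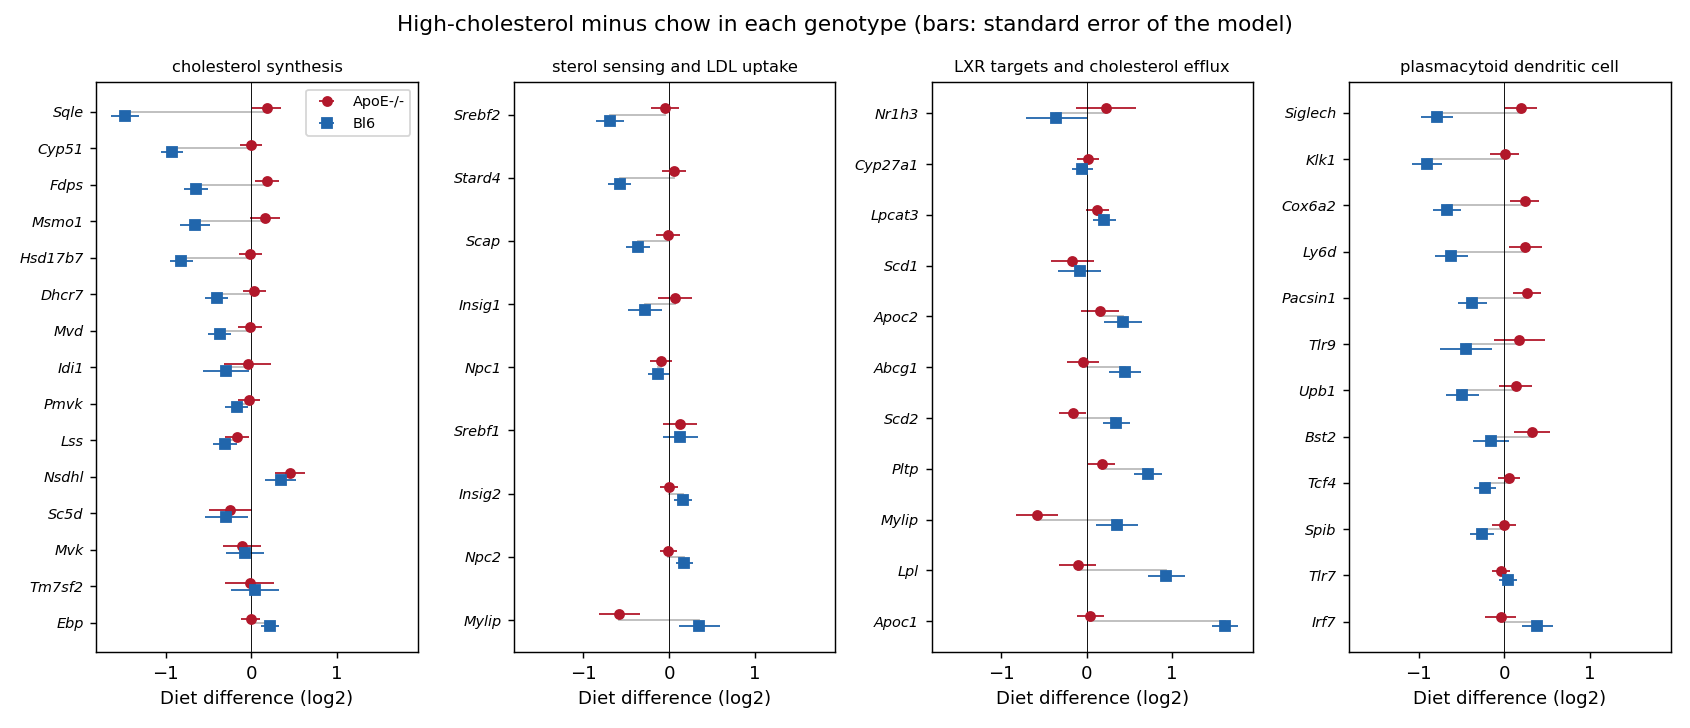
Diet difference (log2, high-cholesterol minus chow) of every measured gene of 4 lists in ApoE-/- cells (red circles) and Bl6 cells (blue squares), with the standard error of the model as bars and genes ordered by interaction. Circles stay near 0 for most genes of cholesterol synthesis and LXR targets, while squares reach -1.47 (Sqle) and 1.62 (Apoc1). For plasmacytoid dendritic cells the circles lie between -0.04 and 0.32, with a median of 0.15, and the squares have a median of -0.41.

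Genes of lipid uptake and storage, a list that shares Lpl with the LXR targets, lay mostly below 0. Of 14 measured, 12 lay below 0, 4 of them at an unadjusted p under 0.05 (3.58% of all genes) and 0 above (3.86%), with a median of -0.36. The 4 include Lpl. They also include Cd36, which was detected on 2 ApoE-/- chow arrays and 1 Bl6 high-cholesterol array and passed the detection filter through these groups alone. Exchanged, 2 were below (3.13%) and 0 above (3.84%), with a median of -0.12. Gpnmb, a lysosomal glycoprotein of lipid-laden macrophages, stood at -0.65 ± 0.17 (adjusted p = 0.404), although its other probe gave -0.18. Scarb1, the high-density lipoprotein receptor SR-BI, was at -0.93 ± 0.33 and exchanged 0.04. The list's mean was 8.46 to 8.51 on ApoE-/- high-cholesterol arrays and 8.57 to 8.67 on ApoE-/- chow arrays, 8.78 to 8.88 on Bl6 high-cholesterol and 8.53 to 8.60 on Bl6 chow arrays. Plin2, the coat protein of lipid droplets, had its Bl6 high-cholesterol arrays (8.62 to 8.84) above the other 9 (7.74 to 8.31) and an interaction of -0.43 ± 0.22 (exchanged -0.51). Synthesis and oxidation of fatty acids had medians of -0.0042 and -0.16.

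**Figure D3:**
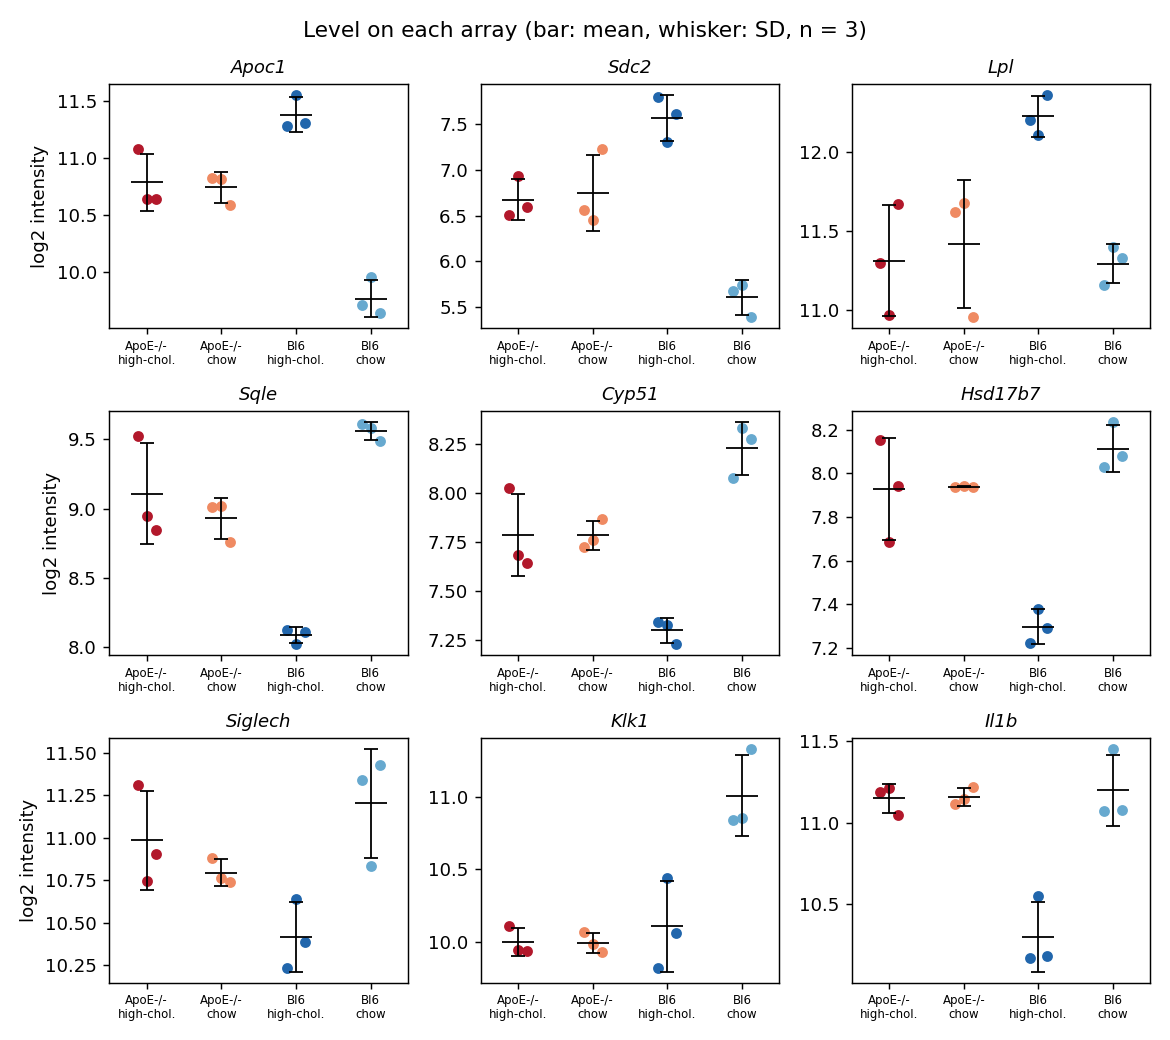
Level (log2 intensity) of 9 genes on each of the 12 arrays, in the order ApoE-/- high-cholesterol, ApoE-/- chow, Bl6 high-cholesterol and Bl6 chow, with the mean and SD of 3 arrays; each axis has its own range and does not start at 0. For Sqle, Cyp51 and Hsd17b7 the Bl6 high-cholesterol arrays lie below, and for Apoc1, Sdc2 and Lpl above, all other arrays.

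Markers of plasmacytoid dendritic cells, which make type I interferon, had the median farthest from 0 of the 36 lists, 0.62 (exchanged 0.27). Of 12 measured genes 6 were above 0 and 0 below at an unadjusted p under 0.05 (3.86% and 3.58% of all genes), and exchanged 2 and 0 (3.84% and 3.13%). Siglech, a sialic acid-binding lectin that marks these cells, read 11.31, 10.75 and 10.90 on ApoE-/- high-cholesterol arrays and 10.88, 10.76 and 10.74 on ApoE-/- chow arrays. It read 10.23, 10.64 and 10.39 on Bl6 high-cholesterol arrays, against 11.34, 10.84 and 11.43 on Bl6 chow arrays. Its interaction was 0.98 ± 0.27 (adjusted p = 0.443; exchanged 0.59), and the other probe gave 0.87. Klk1, a kallikrein protease abundant in mouse plasmacytoid dendritic cells, read 10.11, 9.95 and 9.94 on ApoE-/- high-cholesterol arrays and 10.06, 9.99 and 9.93 on ApoE-/- chow arrays. It read 9.82, 10.44 and 10.06 on Bl6 high-cholesterol arrays, against 10.84, 10.86 and 11.33 on Bl6 chow arrays. The Bl6 chow arrays thus stood above the other 9, and the value was the same under either naming (0.90 ± 0.25; exchanged 0.90).

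Cox6a2, Ly6d, Pacsin1 and Upb1, other markers of these cells, had interactions of 0.90, 0.86, 0.64 and 0.62. In 3 of 12 genes the Bl6 chow arrays were all above the other 9 (1.48% of all genes). Irf7 and Tlr7, which act in interferon production, stood at -0.43 and -0.08. The list's mean was 9.92, 9.54 and 9.74 on ApoE-/- high-cholesterol arrays and 9.64, 9.66 and 9.52 on ApoE-/- chow arrays. It was 9.63, 9.64 and 9.53 on Bl6 high-cholesterol arrays, against 10.02, 9.89 and 10.01 on Bl6 chow arrays. Sample 4 of the knockout reached into the range of the Bl6 chow arrays.

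Markers of other cells differed between single arrays. B cell genes had a median of 0.34, with 10 of 11 above 0 and 1 of them at an unadjusted p under 0.05 (3.86% of all genes), and 0 exchanged. Their mean was 9.33 to 9.63 on ApoE-/- high-cholesterol arrays and 9.28 to 9.49 on ApoE-/- chow arrays, 9.45, 9.80 and 9.45 on Bl6 high-cholesterol and 9.45, 10.22 and 9.98 on Bl6 chow arrays, and samples 8, 9 and 11 were the highest of all arrays. Erythroid genes had a median of 0.37 (exchanged 0.11), with 2 of 9 above 0 and 0 below at an unadjusted p under 0.05 (3.86% and 3.58% of all genes). Slc4a1, the anion exchanger of red cells, stood at 1.62 ± 0.65, but on sample 11 it read 8.26 and on the other Bl6 high-cholesterol arrays 9.99 and 9.80; without sample 11 its interaction was 1.07. Neutrophil genes had a median of 0.11. Samples 5 and 3 had list means of 7.79 and 7.85, below the 8.32 to 8.46 of the remaining 4 knockout arrays. The part of these cells in the values above was not tested.

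**Figure D4:**
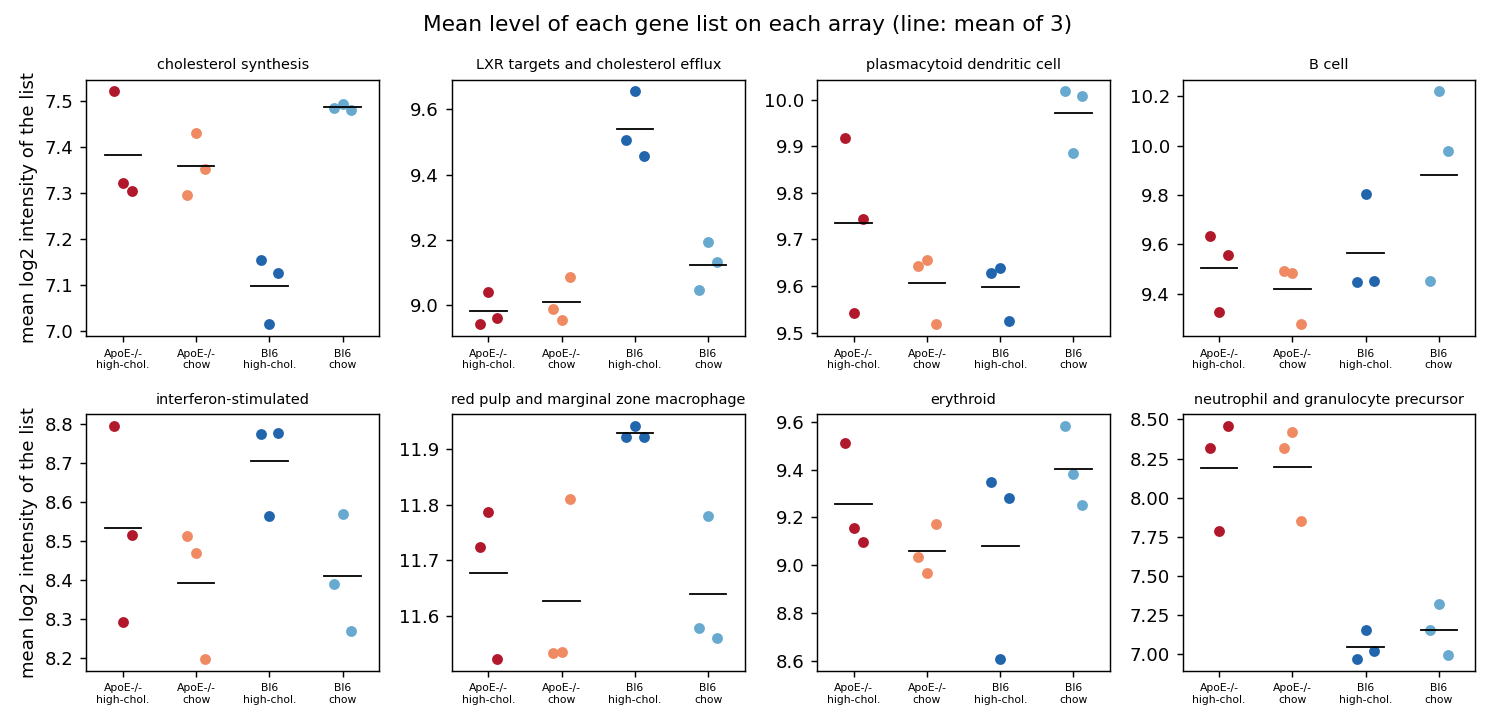
Mean level (log2 intensity) of the measured genes of 8 lists on each array, in the order ApoE-/- high-cholesterol, ApoE-/- chow, Bl6 high-cholesterol and Bl6 chow, with lines at group means; each axis has its own range and does not start at 0. The Bl6 high-cholesterol arrays are lowest for cholesterol synthesis and highest for LXR targets and for macrophage genes, where the mean leans on Vsig4. The Bl6 chow arrays are high for plasmacytoid dendritic cell genes, and single arrays stand out for B cell and erythroid genes.

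Genes of splenic red pulp and marginal zone macrophages had a median of -0.13, with 0 of 17 above 0 and 2 below at an unadjusted p under 0.05 (3.86% and 3.58% of all genes). Their mean was 11.92 to 11.94 on Bl6 high-cholesterol arrays and 11.52 to 11.81 on the other 9. This mean leans on Vsig4, whose Bl6 groups lay far further apart than the list's median Bl6 diet difference of 0.11. A mean without Vsig4 was not taken. In 4 of 17 genes, C1qb, C1qc, Mrc1 and Cd163, the Bl6 high-cholesterol arrays were all above the rest (2.4% of all genes). Vsig4, a complement receptor of tissue macrophages, had the lowest interaction of all genes, -4.11 ± 0.99 (adjusted p = 0.396; exchanged -3.01). It read 8.36, 6.96 and 9.58 on ApoE-/- high-cholesterol arrays and 9.71, 9.72 and 7.13 on ApoE-/- chow arrays. It read 9.53, 9.34 and 9.69 on Bl6 high-cholesterol arrays, against 6.34, 5.98 and 5.57 on Bl6 chow arrays. Samples 3 and 5, low in neutrophil genes, were also the lowest knockout arrays for Vsig4, and the ApoE-/- groups overlapped. For the macrophage list mean samples 3 and 5 were the highest knockout arrays, at 11.81 and 11.79, so Vsig4 ran opposite to that mean there.

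Interferon-stimulated genes had a median of -0.23, with 0 of 22 above 0 and 2 below at an unadjusted p under 0.05 (3.86% and 3.58% of all genes). Exchanged, the median was -0.42, with 0 above and 6 below (3.84% and 3.13%). In ApoE-/- cells 2 of 22 were higher on the high-cholesterol diet and 0 lower at an unadjusted p under 0.05 (1.49% and 1.8% of all genes), and in Bl6 cells 8 were higher and 0 lower (5.38% and 6.62%). Oasl2, of the antiviral oligoadenylate synthase family, stood at -0.85 ± 0.34 (its other probe at -0.32), and Ifit3, which binds viral RNA complexes, at -0.55 ± 0.23 (its other probe at -0.84). The list's mean overlapped between groups, with 8.80, 8.29 and 8.51 on ApoE-/- high-cholesterol arrays, 8.51, 8.47 and 8.20 on ApoE-/- chow, 8.77, 8.56 and 8.78 on Bl6 high-cholesterol and 8.39, 8.57 and 8.27 on Bl6 chow arrays.

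The inflammatory cytokine list had 16 measured genes and a median of -0.04. At an unadjusted p under 0.05, 1 lay above 0 and 3 below (3.86% and 3.58% of all genes). Exchanged, 1 lay above and 1 below (3.84% and 3.13%). Among cytokines, Il1b and Il10 lay on opposite sides. Il1b, the inflammatory interleukin-1 beta, read 11.19, 11.21 and 11.05 on ApoE-/- high-cholesterol arrays and 11.11, 11.14 and 11.22 on ApoE-/- chow arrays. It read 10.17, 10.55 and 10.18 on Bl6 high-cholesterol arrays, against 11.07, 11.45 and 11.08 on Bl6 chow arrays. The 3 Bl6 high-cholesterol arrays were below the other 9, with an interaction of 0.89 ± 0.20 (adjusted p = 0.346; exchanged 0.91), and 1 of 8 processing settings called it (adjusted p = 0.0138; range over settings 0.0138 to 0.565). Il10, an anti-inflammatory cytokine, stood at -1.31 ± 0.31 (adjusted p = 0.396; exchanged -0.67), with Bl6 chow arrays at 5.25, 4.96 and 4.46 below the other 9 (5.64 to 6.56). Nfkb1, the NF-kappaB subunit p50, was at 0.71 ± 0.21 and the immediate early gene Fosb at 1.14 ± 0.38. Over the processing settings Il10 ran between -1.39 and -0.41, Nfkb1 between 0.53 and 0.71 and Fosb between 0.40 and 1.14. By list mean the Bl6 high-cholesterol arrays were below the other 9 for the lists NF-kappaB and feedback (9.01 to 9.04 against 9.06 to 9.36) and immediate early genes (8.16 to 8.27 against 8.29 to 8.50). Gzmk, a granzyme of T and NK cells, stood at -1.30 ± 0.35 (exchanged -0.90).

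Pth2 was above background in 1 group only. Pth2, a small neuropeptide related to parathyroid hormone, read 5.31, 5.27 and 5.63 on ApoE-/- high-cholesterol arrays and 4.31, 4.32 and 4.10 on ApoE-/- chow arrays, where it was not above background on any array. It read 4.56, 4.28 and 4.32 on Bl6 high-cholesterol arrays, against 4.31, 4.54 and 4.53 on Bl6 chow arrays, not above background on any of the 6. The 3 ApoE-/- high-cholesterol arrays alone detected it, at least 1.93-fold higher than on ApoE-/- chow, with each undetected value set no lower than the faintest signal detected on that array. It passed the detection filter only through the group where it was high, so these values are a description with no test.

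In 102 genes (0.712% of 14326) the diet groups did not overlap in either genotype and moved in opposite directions, 50 with an interaction above 0 and 52 below. In 88 genes (0.614%) they did not overlap and moved in the same direction. With the knockout diets exchanged these counts trade places, so that 88 genes are opposite and the 102 run the same way. Most named genes were picked by a small interaction p, which favours the opposite pattern. Among the named genes it was seen in Col20a1, Mbd6, Olfr1424, Synpo2l, Ube2d2b, Utp14a, Taf1, Clec11a, Tmem178, Gclc and Ddit3. Utp14a, of the ribosome-assembling small-subunit processome, read 5.22, 5.19 and 5.20 on ApoE-/- high-cholesterol arrays and 5.59, 5.59 and 5.45 on ApoE-/- chow arrays. It read 6.17, 6.15 and 6.35 on Bl6 high-cholesterol arrays, against 5.23, 5.27 and 5.81 on Bl6 chow arrays, with an interaction of -1.13 ± 0.21 (adjusted p = 0.298; exchanged -0.45). Gclc, the catalytic subunit that starts glutathione synthesis, stood at -0.54 ± 0.16 and Ddit3, the stress factor CHOP, at -0.44 ± 0.17.

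Other genes of smallest p were Serpinh1, a collagen chaperone (1.23 ± 0.23, and 0.59 at its other probe), and Slc41a2, a magnesium transporter (0.97 ± 0.20), at adjusted p-values of 0.300 and 0.317. In both the ApoE-/- diet difference was 0.22 or less and the Bl6 difference -0.83 or lower.

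With the knockout diets exchanged, genes that differed with diet in the same direction in both genotypes took the place of some of these. Kdm3b, a histone lysine demethylase, read 5.75, 5.93 and 5.93 on ApoE-/- high-cholesterol arrays and 4.60, 4.98 and 4.53 on ApoE-/- chow arrays. It read 5.70, 5.45 and 5.57 on Bl6 high-cholesterol arrays, against 4.63, 5.27 and 5.26 on Bl6 chow arrays. The interaction was 0.65 ± 0.26, the exchanged value -1.68 (adjusted p = 0.196), and the other probe gave 0.42 and -0.67. Cd207, langerin, a lectin of Langerhans cells and some splenic dendritic cells, read 5.82, 6.79 and 6.25 on ApoE-/- high-cholesterol arrays and 6.71, 6.81 and 7.02 on ApoE-/- chow arrays. It read 6.15, 6.38 and 6.30 on Bl6 high-cholesterol arrays, against 7.64, 7.05 and 7.22 on Bl6 chow arrays, with an interaction of 0.47 ± 0.32 and an exchanged value of 1.59 (adjusted p = 0.459; 0.0430 with trended, robust variances). Its interaction was 0.22 without sample 5 and 0.70 without sample 4. Ficd, an AMP-transferase of the endoplasmic reticulum, and Nphp4, a protein of the ciliary transition zone, had exchanged values of 1.02 and 1.42. Ficd was not above background on any high-cholesterol array.

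Across all 36 lists, 446 of 529 genes were tested, 43 were below the detection filter and 40 were not analysed here. In 26 lists, holding 332 measured entries, the median interaction lay within 0.2 of 0. Conventional dendritic cells were among them, with medians of -0.05 for type 1 and -0.04 for type 2 markers, as were antigen presentation by MHC class II (-0.08), ribosomal proteins (0.03) and the respiratory chain (-0.08). Itgae, the integrin CD103 of type 1 cells, was below 0 by itself at -0.88 ± 0.24 (adjusted p = 0.430; exchanged -0.44), and 4 of its other 5 probes were below 0. NK and cytotoxic genes had a median of -0.24 that turned to 0.17 when diets were exchanged. By list means the Bl6 high-cholesterol arrays lay wholly above or below the other 9 in 6 of 36 lists, the ApoE-/- high-cholesterol arrays in 1, the ApoE-/- chow arrays in 1 and the Bl6 chow arrays in 0. The 6 include the macrophage list, whose mean leans on Vsig4, and the LXR and lipid uptake lists, which share Lpl.

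**Figure D5:**
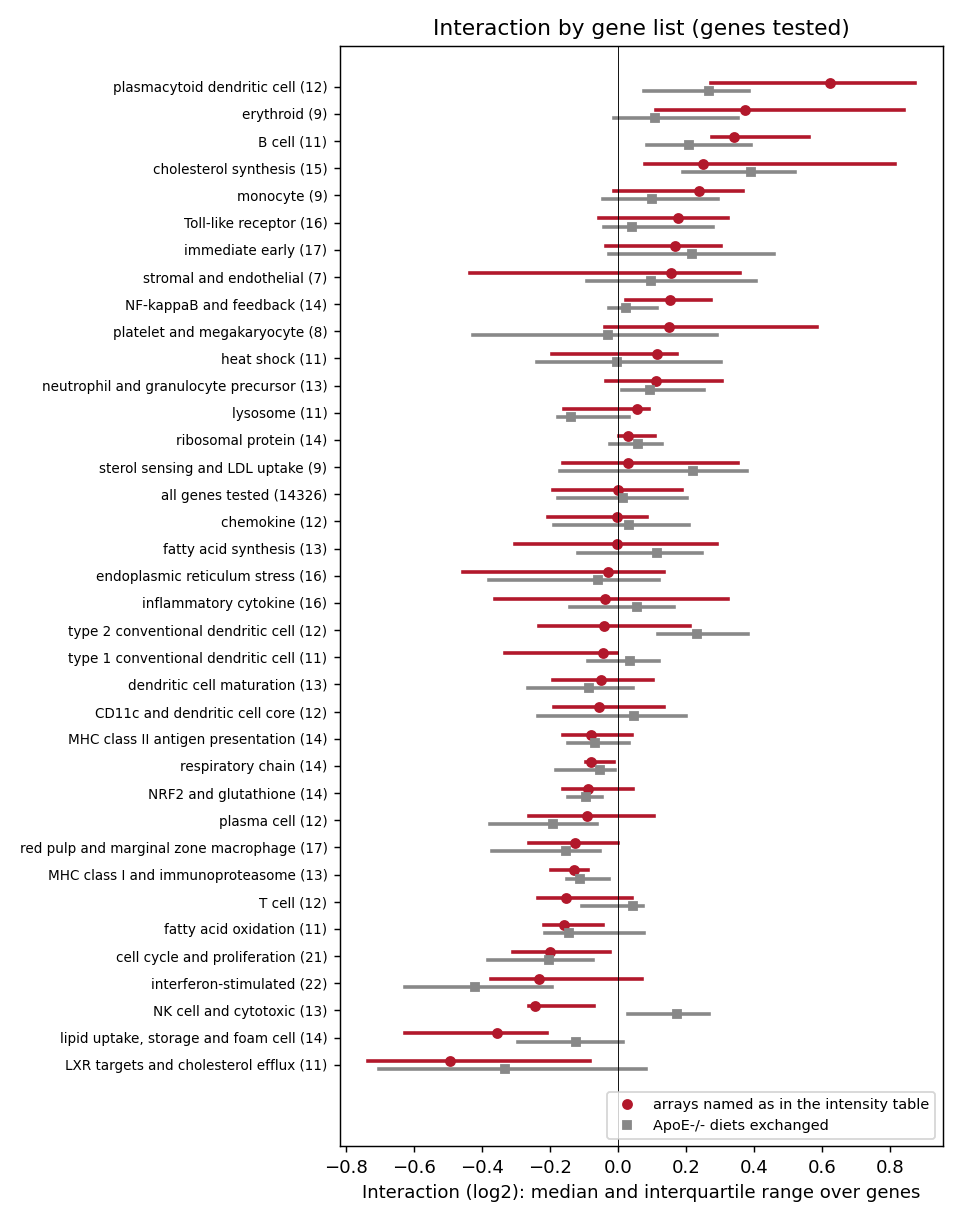
Median interaction (log2) over the measured genes of each list, with the interquartile range over genes as lines, for arrays named as in the intensity table (red circles) and with the knockout diets exchanged (grey squares); numbers in parentheses count genes. The plasmacytoid dendritic cell list is highest at 0.62 and the LXR list lowest at -0.50, while the median of all genes is near 0.

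Genes close to Apoe, which can carry the DNA of the strain in which the knockout was made, had interactions with a median of -0.0063, and that of all placed genes was -0.0037. Of 389 genes within 20 Mb of it on chromosome 7, 7.71% had an unadjusted p under 0.05, and of all 13127 placed genes 7.28%.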

How the data were processed

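RNA of 12 samples was hybridised to separate Illumina MouseWG-6 v2 arrays, per the labels. The authors' deposited intensity table holds a linear intensity and a detection p-value for each of 46237 probes, per the file headers; the deposited log2 values equal log2 of these intensities plus a constant per array.

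Intensities were corrected with limma 3.58.1 (R 4.3.3) by normexp, with control signals derived from detection p-values and an offset of 16; quantile normalisation and log2 followed. A model of 4 group means was fitted to all arrays (8 residual degrees of freedom, prior 3.42), with moderated two-sided tests adjusted by Benjamini and Hochberg over 26390 probes. Unless SD is stated, ± is the model's standard error, with 3 arrays per group. The brightest tested probe stood for its gene. Of all probes 35784 carried 1 platform symbol and 10453 none; symbols were updated by RefSeq (GRCm38.p6) gene number for 28620 probes, transcript accession for 2637 and symbol for 2128, and 2399 stayed as given.

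Named genes were Apoe, the genes of smallest p (10 above and 10 below 0, and 5 and 5 with diets exchanged, without predicted models and clone names) and the 2 members of smallest p in each of 36 lists. Other members and probes were chosen after their values were seen. Members and lists were chosen with earlier results of these data known. Steps were tested on simulated data. Alternatives changed the background, offset, normalisation, filter, variance model, array weights and arrays used.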

Additional observations from a re-analysis of the deposited data

Results flagged for a closer look

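Of 93 named genes, 11 had diet groups that did not overlap in either genotype and moved in opposite directions. Over all genes the share was 0.712%. Most named genes were picked by a small interaction p, which favours this pattern, so the count is a description. The interaction was 1.03 for Col20a1, a collagen chain, 1.41 for Mbd6, a methyl-CpG-binding domain protein, 0.99 for Olfr1424, an olfactory receptor, and 1.15 for Synpo2l, an actin-associated protein. It was -1.36 for Ube2d2b, a ubiquitin-conjugating enzyme, -1.13 for Utp14a, -0.84 for Taf1, a subunit of the general transcription factor TFIID, -1.09 for Clec11a, a secreted lectin, -0.93 for Tmem178, a membrane protein, -0.54 for Gclc and -0.44 for Ddit3. Synpo2l was detected only on 2 ApoE-/- high-cholesterol and 3 Bl6 chow arrays. It passed the detection filter only through the groups where it was high, so its values are a description with no test. None of the other genes passed limma's test of the difference itself, with adjusted p-values between 0.249 and 0.585. The complete separation seen in the arrays was not tested further. In Olfr1424, Ube2d2b, Synpo2l and Clec11a at least 1 of the 4 groups was not above background on any array. Exchanging the knockout diets turns the ApoE-/- separation of all 11 genes, which then runs the same way as that of Bl6, and the interaction of Col20a1, Olfr1424, Ube2d2b, Taf1, Gclc and Ddit3 changes sign.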

How the results depend on the processing

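The count of probes past the threshold for the interaction was 0, and with limma it became 10 without background correction, 8 with an offset of 50, 8 on the deposited log2 values, 9 among probes detected on all 12 arrays and 13 with trended, robust variances. It stayed at 0 with median scaling, with no filter and with array weights, and in each fit without 1 array. With the knockout diets exchanged the same 5 settings gave 3, 2, 8, 2 and 9 probes. The ApoE-/- diet difference gave 1 probe with array weights. The Bl6 diet difference, with 10 probes, gave 266, 133, 221, 85 and 254 in those 5 settings and 2 to 41 without 1 array (2 without sample 8, 9, 10 or 12, 6 without sample 1, 20 without sample 7 and 41 without sample 11). The causes were not tested, except that fewer probes were tested under the filter of 12 arrays.

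Exchanging the diets reversed the sign of Pth2 (-1.09), Col20a1 (-0.35), Olfr1424 (-0.25), Ube2d2b (0.19), Taf1 (0.11), Kdm3b (-1.68), Fads2 (-0.040), Cd36 (0.29), Prdm1 (0.47), Tnfrsf17 (-0.052), Cd3d (0.077), Klrk1 (0.029), Ank1 (-0.014), H2-Ab1 (0.057), Gclc (0.18), Slc7a11 (-0.29), Ddit3 (0.071) and Rpl10a (-0.030). Ficd ran between -0.0097 without sample 9 and 0.144 without sample 7, and Rps6 turned to -0.0039 with median scaling, which moved the median of all probes to -0.09. The other named genes kept their sign under every alternative run. Sizes depended on the background: of 93 named genes 34 to 47 were over 1.5 times smaller with an offset of 50, without correction or on the deposited log2 values, and with median scaling 8 were smaller and 6 larger by that factor.

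No paired analysis was possible because the running numbers 1 to 12 of the titles are shared by no 2 groups. With 3 arrays a group, the median standard error was 0.31 over the 6598 dimmest and 0.18 over the 6598 brightest probes, so precision depended on signal over background, and about as many probes lay below as above it.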

Other observations

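Adhesion, platelet and stromal genes that the text has not yet described were mixed. Itgb3, the integrin beta chain of platelets, had an interaction of -1.02 ± 0.32 (exchanged -0.03), and Tubb1, the beta tubulin of platelets, of 0.80 ± 0.37. Tubb1 gave 0.19 at its other probe and ran between 0.23 and 0.80 over the processing settings. Its main probe was not above background on any Bl6 high-cholesterol array. Cdh5, the cadherin of endothelial junctions, stood at 0.73 ± 0.25 (exchanged 0.56), with 0.58 at its other probe, and its Bl6 high-cholesterol arrays (6.05 to 6.30) lay below the other 9 (6.42 to 7.08). Dcn, the matrix proteoglycan decorin, stood at -0.90 ± 0.36, at -0.59 without sample 12 and between -0.90 and -0.19 over the processing settings. Cell cycle genes had a median of -0.20 under the intensity table's names and -0.20 exchanged, with 16 of 21 below 0. At an unadjusted p under 0.05, 0 were above and 0 below (3.86% and 3.58% of all genes). Exchanged, 0 were above and 1 below (3.84% and 3.13%). None of these passed limma's adjusted test.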
